A study of Mus musculus with 8 samples.

Results

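The early neutrophil progenitor group, labelled proNeu1, was compared with the common monocyte progenitor group, labelled cMoP, by chromatin accessibility in mouse bone marrow. All 61196 regions of the deposited files entered, since the 2 proNeu1 and the 2 cMoP files list the same regions, and 47506 of them passed the filter on low counts and were tested. The study measured 8 samples in 4 groups of 2 (cMoP, proNeu1, proNeu2 and GMP-MoP), and 4 samples make up this comparison. Each sample was 5000 sorted bone marrow progenitor cells whose DNA was cut and tagged by the Tn5 transposase, which inserts into open chromatin (ATAC-seq). The labels give no strain, age, genotype, treatment or sorting gate for either group, and they number the samples as biological replicates without saying that they came from separate animals. All p-values are therefore set against sample-to-sample spread that may be technical.

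Monocytes and neutrophils both arise from granulocyte-monocyte progenitors. The transcription factors PU.1 and C/EBPα act in both lineages, while IRF8 and KLF4 favour monocytes and GFI1 and C/EBPε favour neutrophils. Neutrophil precursors make their granule proteins in a fixed order, with the primary granule enzymes before the secondary and tertiary granule proteins. An accessible region is a promoter or a distal element that can be bound by such factors, and its accessibility is not a measure of the transcription of the gene nearest to it.

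Totals over the regions were 1907810 and 1896924 counts in cMoP and 1515953 and 1572001 in proNeu1, and the median region held 16 and 18 counts in cMoP and 11 in each proNeu1 library. Levels are CPM, counts brought to the same library size by TMM factors, in replicate 1 and then replicate 2 of a group. Differences are log2 of proNeu1 over cMoP with a standard error (SE), and adjusted p-values come from edgeR's quasi-likelihood test with Benjamini-Hochberg adjustment over all tested regions. A region was called at an adjusted p under 0.05 and was assigned to its closest protein-coding gene, at most 50 kb away (50000 bases), which does not show which gene it regulates. Coordinates are on mm10.

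Known markers of the labelled cell types mostly followed the labels. Of the cMoP markers, Irf8 had 6 of 9 tested regions lower in proNeu1 and none higher, Klf4 3 of 3 and Irf5 3 of 4. Leaving out 1 library ended 2 of the Klf4 calls (adjusted p from 0.0535 to 0.0958) and, for each library left out, 1 of the Irf5 calls (0.0969 to 0.2). Among the proNeu1 markers, Camp had 3 of 3 regions higher, and Cebpe, Ngp and S100a8 each had 2 of 2. Some markers did not follow the labels. Ly6c2 (2 of 5) and Cx3cr1 (1 of 7), both monocyte markers, had regions higher in proNeu1 and none lower, and no region of the monocyte marker Cd14 or the primary granule gene Ctsg was called. With offsets fitted to the signal by loess, the Cx3cr1 call was lost (log2 0.349), as was 1 of the Ly6c2 calls (log2 0.39). Both were also lost with DESeq2's test and when single libraries were left out. These are bulk samples of sorted cells, so fewer cells with an open region and less opening per cell cannot be told apart.

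Promoters at both ends of the comparison show which start sites lay inside called regions. The 250 bases before the RefSeq start site (GRCm38.p6, the same assembly as mm10) are printed 5′ to 3′ on the gene's strand for 5 genes. These were picked, after their values were seen, from the promoters read, and their regions were called in all 13 alternative fits. S100a9 encodes a calprotectin subunit, Ngp a neutrophil granule protein, Irf8 the monocyte and dendritic cell factor, Tlr9 an endosomal receptor for CpG DNA and Mmp8 neutrophil collagenase. Capitals mark matches, on either strand, to the letters of C/EBP (TTGCNNAA), PU.1-like ETS (GAGGAAG), IRF (GAAANNGAA), ETS-IRF composite (GGAANNGAA), RUNX (TGTGGTT), AP-1 (TGANTCA), KLF CACCC box (CCACACCC) motifs, and to AGATAA of the GATA factors. The S100a9 sequence is at chr3:90695722-90695971 on the minus strand. The others are on the plus strand, Ngp at chr9:110419558-110419807, Irf8 at chr8:120736108-120736357, Tlr9 at chr9:106222348-106222597 and Mmp8 at chr9:7558179-7558428.
S100a9, higher in proNeu1: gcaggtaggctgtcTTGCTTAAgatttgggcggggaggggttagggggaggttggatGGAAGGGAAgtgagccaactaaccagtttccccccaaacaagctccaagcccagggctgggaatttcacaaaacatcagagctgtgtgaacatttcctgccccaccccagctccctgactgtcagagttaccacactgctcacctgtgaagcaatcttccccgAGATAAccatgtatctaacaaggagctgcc
Ngp, higher in proNeu1: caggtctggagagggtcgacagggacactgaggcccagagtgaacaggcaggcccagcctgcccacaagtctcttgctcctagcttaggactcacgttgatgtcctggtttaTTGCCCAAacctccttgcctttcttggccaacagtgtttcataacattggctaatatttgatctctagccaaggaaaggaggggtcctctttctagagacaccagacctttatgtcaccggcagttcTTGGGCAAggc
Irf8, lower in proNeu1: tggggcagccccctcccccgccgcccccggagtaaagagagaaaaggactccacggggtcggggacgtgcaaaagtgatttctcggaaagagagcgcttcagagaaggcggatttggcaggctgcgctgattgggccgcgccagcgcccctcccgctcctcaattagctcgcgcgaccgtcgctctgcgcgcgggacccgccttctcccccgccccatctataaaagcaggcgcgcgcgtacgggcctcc
Tlr9, lower in proNeu1: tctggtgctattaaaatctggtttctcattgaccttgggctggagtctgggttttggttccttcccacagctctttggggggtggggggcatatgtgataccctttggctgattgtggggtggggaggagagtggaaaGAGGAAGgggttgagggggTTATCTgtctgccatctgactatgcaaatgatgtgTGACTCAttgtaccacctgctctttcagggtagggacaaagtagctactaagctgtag
Mmp8, lower in proNeu1: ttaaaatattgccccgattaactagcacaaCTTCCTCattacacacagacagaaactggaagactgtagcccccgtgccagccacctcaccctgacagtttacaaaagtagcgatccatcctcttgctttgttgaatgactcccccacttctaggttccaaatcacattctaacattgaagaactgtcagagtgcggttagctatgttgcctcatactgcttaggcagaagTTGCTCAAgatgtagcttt

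The S100a9 window held a C/EBP match (TTGCTTAA) 236 bases before the start site, an ETS-IRF composite match 193 bases before it and a GATA match 30 bases before it. Ngp had C/EBP matches 138 and 11 bases before its start. Tlr9 had a PU.1-like ETS match, a GATA match and an AP-1 match, at 112, 93 and 58 bases. Mmp8, a granule gene that was lower in proNeu1, had a PU.1-like ETS match 220 bases and a C/EBP match 19 bases before its start, and the Irf8 window had no match to any of the 8 motifs. The promoters of Camp, Nkg7 and Cd34 were also read but are not printed. Camp, higher in proNeu1, had a KLF CACCC box match 105 bases before its start and no C/EBP match. Nkg7, also higher, and Cd34, lower, had no match to any of the 8 motifs. A match is a description of letters and not a site. Over all 21263 RefSeq windows of 300 bases (250 before to 50 after a start), 10.2% held a C/EBP match and 13.6% a PU.1-like ETS match. The PU.1-like ETS letters stood in 13.1% of 5175 windows in regions not called, 13.1% of 3314 in higher regions, 17.7% of 623 in lower regions and 20.7% of 343 in regions lower by at least 2-fold. The C/EBP letters stood in 8.25%, 8%, 10.8% and 12.5% of the same windows and in 10.4% of those higher by at least 2-fold, so their share was not larger in higher than in lower regions. The IRF letters stood in 7.67%, 5.79%, 8.51% and 10.8% of them. In windows of regions higher by at least 2-fold, the shares were 14.8% for the PU.1-like ETS and 6.42% for the IRF letters. With offsets fitted to the signal by loess, the PU.1-like ETS letters stood in 13.8% of windows in higher and 15.7% in lower regions. The IRF letters then stood in 6.38% and 7.35%. The median GC content of the windows was 60.3% in regions not called, 63.3% in higher and 60.3% in lower regions, which was not adjusted for.

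Of the 47506 tested regions, 9773 were higher in proNeu1 (20.6%) and 10389 lower (21.9%), 42.4% in all. Both libraries of a group lay above both of the other at 99.4% of called regions and at 70% of all tested regions. The lower calls were larger, with a median absolute log2 difference of 1.76 against 1.00 for higher calls. At least 2-fold, 4877 regions were higher (10.3%) and 8801 lower (18.5%), and at least 8-fold 718 were higher and 1810 lower. Of the called regions, 61 had no count in cMoP and 138 no count in proNeu1.

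The direction of the calls moved with the signal of the region. In the highest decile of regions by mean CPM, 49.7% were higher in proNeu1 and 2.27% lower, while in the fifth decile 13.4% were higher and 26.8% lower. Offsets fitted to the signal by loess gave 8353 higher (17.6%) and 8690 lower (18.3%) calls. They moved the median log2 difference from 0.36 to -0.02 in the highest decile, but from -0.20 to 0.56 in the lowest. The weakest regions were therefore not centred by these offsets but shifted towards proNeu1. With loess offsets the highest decile had 14.0% higher and 14.6% lower regions, and the lowest decile changed from 19.6% higher and 27.5% lower to 31.9% and 4.86%. Of the highest decile, 2.61% were higher by at least 2-fold. The part of the signal level in the calls was not tested.

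**Figure D1:**
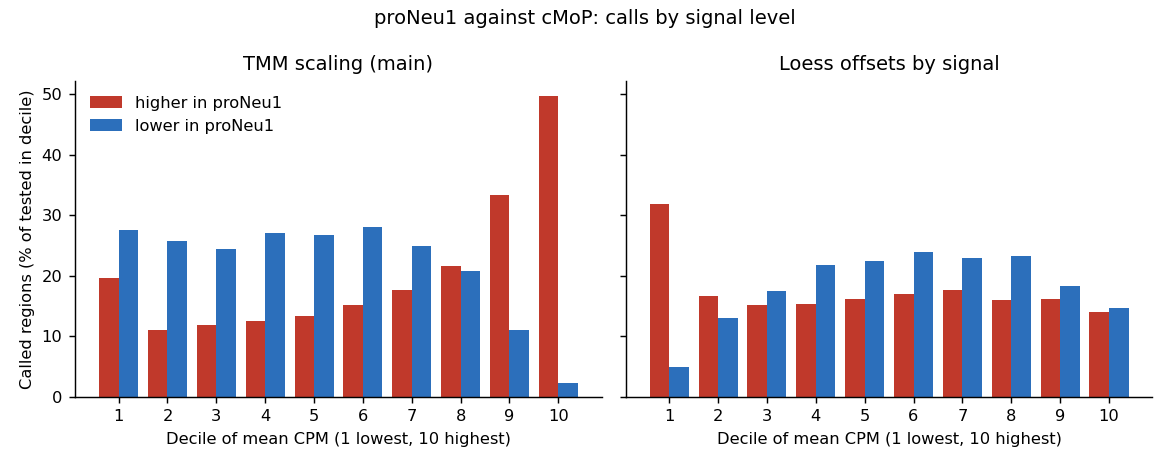
Share of tested regions called higher (red) or lower (blue) in proNeu1, in percent, by decile of mean CPM, with TMM scaling on the left and loess offsets on the right. With TMM scaling 49.7% of the highest decile were higher, against 14.0% with loess offsets.

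Distance from genes moved with direction as well. Among 9112 tested regions overlapping a RefSeq promoter window, 36.4% were higher and 6.84% lower in proNeu1, against 18.4% and 23.9% of 21034 regions in gene bodies and 14.9% and 27.2% of 17360 regions outside genes. The higher promoters were mostly small in size, and at 2-fold 4.44% were higher and 3.76% lower, against 12.2% and 20.6% of regions in gene bodies and 11% and 23.8% of regions outside genes. With loess offsets the promoter shares were 16.3% and 11.8%. Among 4912 regions over 50 kb from a gene, 12.1% were higher and 36.1% lower, and 14.1% and 27.9% with loess offsets. Genes missing from the promoter table, such as Spi1, Cebpe and Csf1r, count as gene body or outside genes.

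**Figure D2:**
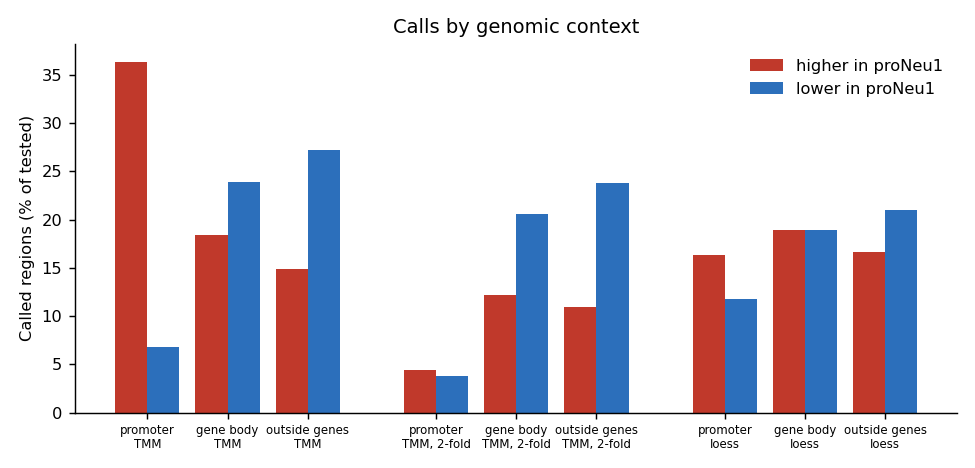
Share of tested regions called higher (red) or lower (blue) in proNeu1, in percent, for promoters, gene bodies and regions outside genes, with TMM scaling, with TMM scaling and at least 2-fold, and with loess offsets. The 36.4% of promoters called higher with TMM scaling became 4.44% at 2-fold and 16.3% with loess offsets.

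The regions of smallest adjusted p lay at genes of several kinds. The promoter region of Fbxo27, an F-box protein gene, at chr7:28693142-28694268, had 67.3 and 79.4 CPM in proNeu1 and 8.06 and 4.75 in cMoP (log2 3.51, SE 0.262, adjusted p = 2.39e-28). Itgb2l, which encodes an integrin beta chain, held a region at chr16:96439315-96440519, had 89.9 and 80.03 and 11.8 and 8.97 CPM (log2 3.02, SE 0.227, adjusted p = 2.39e-28). In Ets1, which encodes an ETS transcription factor, the region at chr9:32711943-32713044 had 44.6 and 44.8 and 1.61 and 3.70 CPM (log2 4.03, SE 0.347, adjusted p = 6.39e-23). Both proNeu1 libraries were far above both cMoP libraries at all 3, and the groups were apart at 99.4% of all called regions. The promoter of Nkg7, a granule membrane protein gene best known from cytotoxic lymphocytes, had 68.7 and 69.9 and 10.8 and 8.97 CPM (log2 2.80, adjusted p = 2.53e-23). Regions in Ank3, an ankyrin gene (log2 3.38, adjusted p = 4.86e-22), and near Cxadr, the coxsackievirus and adenovirus receptor gene (log2 3.42, adjusted p = 5.38e-21), completed this group with S100a9 and Cebpe.

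Among lower regions, that in Cadm1, a cell adhesion molecule gene, at chr9:47733665-47734818, had 2.13 and 4.07 CPM in proNeu1 and 60.2 and 63.9 in cMoP (log2 -4.28, SE 0.329, adjusted p = 2.3e-27). In Tnfrsf1b, which encodes a tumour necrosis factor receptor, the region at chr4:145233295-145234613 had 8.5 and 5.43 and 79.0 and 59.1 CPM (log2 -3.30, SE 0.271, adjusted p = 1.03e-24). Another region in the same gene had 63.0 and 63.8 and 62.4 and 58.6 CPM and did not pass the test (adjusted p = 0.774), so the differences at this gene were not uniform. In Nod2, the gene of a cytosolic sensor of bacterial peptidoglycan, the region at chr8:88668271-88669457 had 15.6 and 21.0 and 98.4 and 97.7 CPM (log2 -2.41, SE 0.203, adjusted p = 1.31e-23). The region in Fbl, the fibrillarin gene, had 2.13 and 0 and 31.7 and 46.5 CPM, which is 3 against 147 counts, a ratio of 37.7 in favour of cMoP (95% counting interval 12.6 to 185). The kinase gene Taok3 (log2 -3.53, adjusted p = 4.9e-26), the ankyrin gene Ank2 (log2 -3.08, adjusted p = 2.72e-26) and the exchange factor genes Rasgrf1 (log2 -4.49, adjusted p = 1.31e-23) and Rasgrp1 (log2 -3.74, adjusted p = 1.81e-20) held the other 4. All 16 regions stayed called in the same direction in each of the 13 alternative fits.

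**Figure D3:**
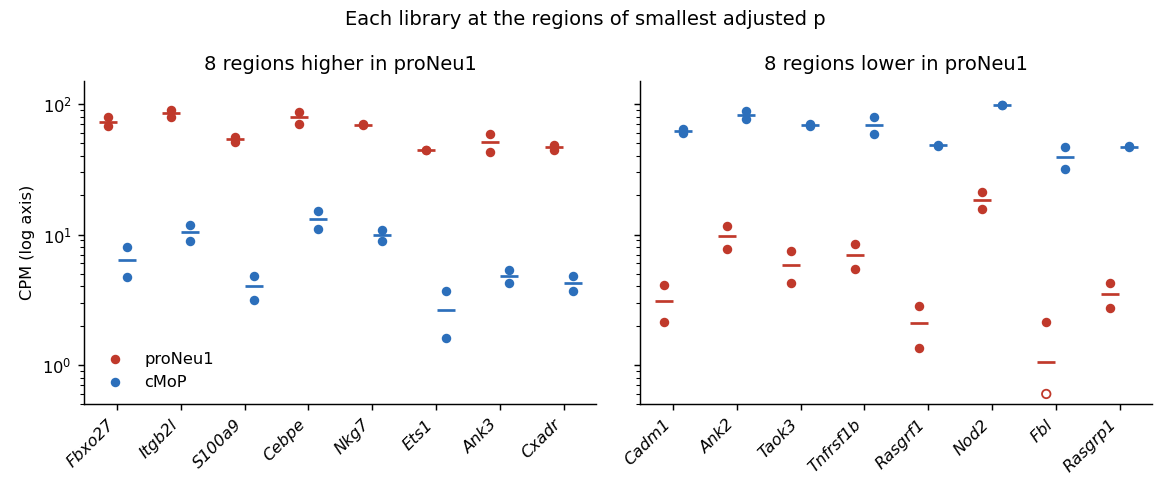
CPM on a log axis in each library of proNeu1 (red) and cMoP (blue) at the 8 regions of smallest adjusted p in each direction, with the group mean as a bar; the open circle at the foot is a library with 0 counts. The groups do not overlap at any of the 16 regions, which were chosen by p-value, and at 99.4% of all called regions they do not overlap either.

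The counts for gene lists cover all tested regions linked to their genes and are read against 20.6% higher and 21.9% lower over all regions. Scaling by total counts in place of TMM factors moved the median log2 difference of all regions by -0.102, so a list median within that distance of 0 has no direction here. A region described at a gene stands for itself, and where a list gene had calls in both directions its counts are given.

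Genes of monocyte transcription factors had 24 of 114 regions higher (21.1%) and 36 lower (31.6%), with a median log2 difference of -0.11. Near Irf5, which drives inflammatory gene expression in macrophages, the region at chr6:29523728-29524853 had 6.37 and 2.71 CPM in proNeu1 and 47.8 and 43.8 in cMoP. In Nfkb1, which encodes the p50 subunit of NF-κB, 1 intragenic region had 0 and 2.04 and 19.9 and 27.5 CPM, 3 against 89 counts (ratio 22.8 in favour of cMoP, 95% counting interval 7.56 to 113). The strongest region of the same gene had 58.8 and 68.5 and 74.2 and 64.9 CPM, with overlapping groups, and Nfkb1 had 7 of 13 regions lower and 1 higher. The promoter of Irf4, a relative of Irf8, had 9.92 and 14.2 and 27.4 and 25.9 CPM (log2 -1.13, adjusted p = 0.000591) and a region 10.6 kb before its start had means of 1.02 and 20.8 CPM. Some regions of this list were higher. At Bhlhe40, a transcriptional repressor gene with 2 regions higher and 2 lower of 9, the region at chr6:108659025-108660980 had 192 and 175 and 70.4 and 68.1 CPM (log2 1.4, SE 0.138, adjusted p = 1.98e-18), and regions of Egr2 (log2 0.74, adjusted p = 2.59e-05) and Nr4a1 (log2 0.97, adjusted p = 1.97e-06), genes with no lower call, were also higher.

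The Irf8 locus was lower in proNeu1 at its promoter and around it. The promoter region at chr8:120735825-120736872 had 4.25 and 4.75 CPM in proNeu1 and 31.2 and 31.7 in cMoP (log2 -2.78, SE 0.354, adjusted p = 5.25e-12). A region 16.3 kb before the start site had a mean of 2.07 CPM in proNeu1 and 10.2 in cMoP (log2 -2.24), and one 32.4 kb after it had 2.79 and 9.86 (log2 -1.80). Regions 21.2 and 27.1 kb after the start had 0.678 and 0.354 CPM in proNeu1, which are 2 counts and 1 count over both libraries, and 10.7 and 11.5 in cMoP. The strongest region, 56.6 kb after the start, had 18.4 and 21.7 and 53.8 and 53.3 CPM (log2 -1.41, adjusted p = 1.99e-08), so the difference there was smaller than at the promoter. The calls 16.3 kb before and 32.4 kb after the start were lost without cMoP replicate 1 (adjusted p = 0.137) and without proNeu1 replicate 2 (adjusted p = 0.0735), respectively. An intragenic region 4.8 kb after the start had 11.1 and 6.37 CPM (log2 0.79, adjusted p = 0.107), and 2 more, at 30.4 and 60.1 kb, did not pass the test.

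Granulocyte transcription factor genes had 33 of 89 regions higher (37.1%) and 12 lower (13.5%), with a median of 0.20. Near Cebpe, the factor of secondary granule gene expression, the region at chr14:54705441-54707330 had 70.8 and 87.5 CPM in proNeu1 and 15.1 and 11.1 in cMoP, and a region within the gene had means of 64.2 and 16.0 CPM (log2 2.00). In Klf5, a Krüppel-like factor gene, the region at chr14:99297996-99299489 had 132 and 121 and 54.3 and 63.9 CPM (log2 1.09, SE 0.15, adjusted p = 1.26e-10). The list also counts Trib1, whose product promotes degradation of C/EBPα and is not itself a transcription factor, with 5 of 5 regions higher. A Trib1 region had 31.9 and 36.0 and 10.8 and 10.03 CPM (log2 1.70, adjusted p = 5.15e-08). All 4 libraries separated by group at these regions, as they did at 99.4% of all called regions. Gfi1, the repressor that favours neutrophils, had 3 of 5 regions higher and 1 lower. A region 26.7 kb after the start had means of 61.9 and 17.8 CPM (log2 1.79, adjusted p = 3.2e-13), and one 1.5 kb after it 31.7 and 12 CPM (log2 1.4, adjusted p = 6.39e-06). The promoter region at the start had 53.1 and 60.4 and 40.9 and 33.8 CPM (log2 0.61, adjusted p = 0.00555), while a region 17.4 kb after the start fell from 28.5 and 21.6 CPM in cMoP to 7.79 and 5.43 in proNeu1 (log2 -1.92, adjusted p = 9.29e-07). At Tfec, a microphthalmia-family factor gene, an intragenic region was lower (0.708 and 2.04 and 15.1 and 11.1 CPM). The Gfi1 call at the start site was lost with loess offsets (log2 0.30), without cMoP replicate 2 (adjusted p = 0.0745) and without proNeu1 replicate 2 (adjusted p = 0.0645). The promoter of Cebpa, needed for both lineages, did not differ past the test (85.7 and 97.0 and 82.3 and 78.7 CPM, adjusted p = 0.336). A region 20.1 kb before its start, the 1 call among 4 tested Cebpa regions, was lower, with means of 10.4 and 35.4 CPM (log2 -1.76, adjusted p = 4.92e-08). The strongest region of Cebpd did not pass the test (81.5 and 104 and 82.8 and 70.7 CPM, adjusted p = 0.132), but 1 of the 2 Cebpd regions was higher.

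Factors shared by myeloid cells and progenitors had 48 of 254 regions higher (18.9%) and 47 lower (18.5%), and 12 of 27 genes had regions of both kinds. In Spi1, which encodes PU.1, the strongest region had 42.5 and 50.9 and 44.6 and 40.1 CPM (adjusted p = 0.58), while a neighbouring intragenic region at chr2:91088839-91089778 had 23.4 and 27.1 and 7.53 and 2.64 CPM (log2 2.3, SE 0.350, adjusted p = 5.91e-09). Erg, an ETS factor gene of stem and progenitor cells, had 7 neighbouring regions higher towards and beyond its end, with the strongest of the higher calls at chr16:95349392-95351011, with 61.6 and 53.6 and 16.1 and 8.97 CPM (log2 2.19, adjusted p = 8.73e-16). Leaving out cMoP replicate 2, proNeu1 replicate 1 or proNeu1 replicate 2 ended 3 of the 7 Erg calls between them (adjusted p from 0.0568 to 0.205). In Runx1, a core binding factor gene, the promoter of the longer transcript had 51.7 and 52.9 and 25.3 and 28.0 CPM (log2 0.97, adjusted p = 3.61e-05), and the region 150.2 kb further on had 2.13 and 2.71 and 21.5 and 26.9 CPM (log2 -3.28, SE 0.436, adjusted p = 3.49e-11). That single Runx1 region fell by much more than any other of the locus rose. In Etv6, an ETS repressor gene, the region 184.9 kb after the start had 4.96 and 4.07 and 52.1 and 45.9 CPM (log2 -3.42, SE 0.320, adjusted p = 5.16e-20), while its promoter had means of 116 and 96.1 CPM and did not pass the test. Beyond Ikzf1, which encodes Ikaros, the region at chr11:11781454-11782332 had 2.13 and 6.10 and 43.5 and 41.2 CPM (log2 -3.33, adjusted p = 1.62e-17), and in Bach2, a repressor gene, a region had 3.54 and 4.07 and 31.7 and 36.4 CPM (log2 -3.14, adjusted p = 4.32e-14). Calls in both directions were held by Erg (11 higher and 1 lower of 22), Runx1 (8 and 2 of 18), Ets1 (4 and 1 of 14), Etv6 (4 and 6 of 29), Ikzf1 (1 and 5 of 15) and Bach2 (1 and 11 of 23).

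**Figure D4:**
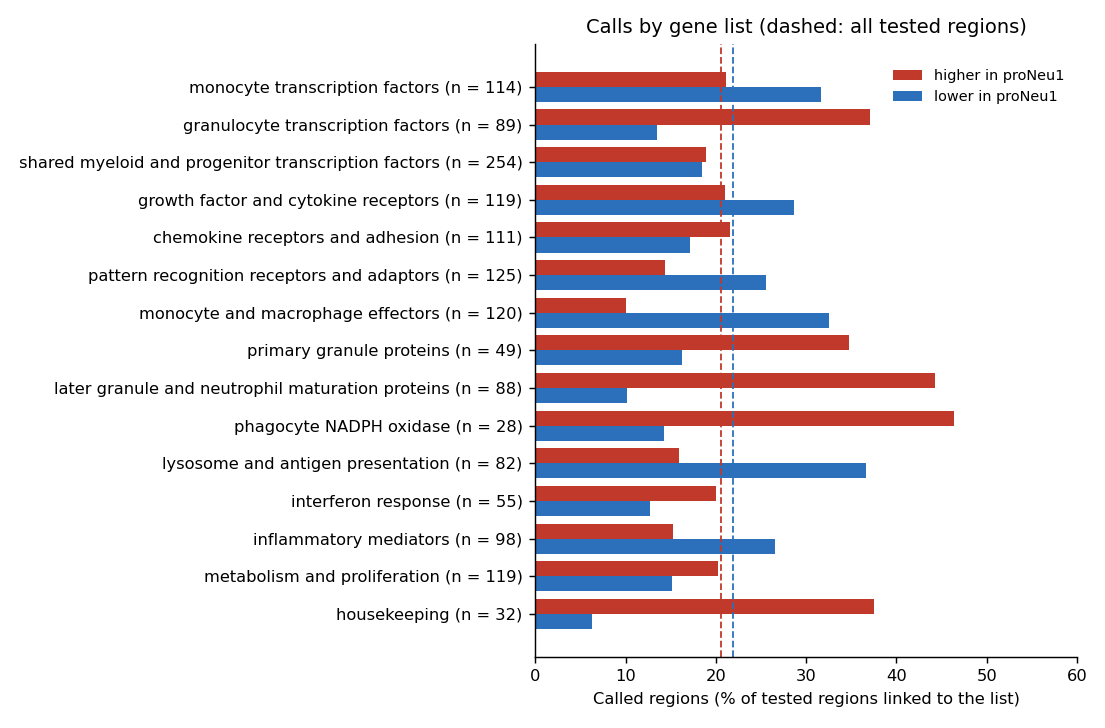
Share of tested regions called higher (red) or lower (blue) in proNeu1, in percent, for each gene list, with the number of regions in brackets and dashed lines for all tested regions (20.6% and 21.9%). Granule, oxidase and granulocyte factor genes have more higher than lower regions, as do housekeeping genes (37.5% and 6.25%), and monocyte effector and lysosome genes the reverse.

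Growth factor and cytokine receptor genes had 25 of 119 regions higher (21.0%) and 34 lower (28.6%). The promoter of Csf3r, the receptor for granulocyte colony-stimulating factor, had 43.2 and 44.8 CPM in proNeu1 and 18.8 and 20.6 in cMoP (log2 1.16, SE 0.228, adjusted p = 7.59e-06), while its strongest region had 39.0 and 38.0 and 32.8 and 34.8 CPM and did not pass the test. Csf1r, the receptor for macrophage colony-stimulating factor, had an intragenic region at chr18:61107550-61109239 with 23.4 and 23.7 and 63.4 and 61.2 CPM (log2 -1.4, SE 0.209, adjusted p = 3.09e-09). The groups were apart in opposite directions at the Csf3r promoter and this Csf1r region. Csf3r had 2 of 4 tested regions higher and none lower, and Csf1r had 1 of 3 lower and none higher. Flt3, the receptor of dendritic cell and lymphoid progenitors, was lower in an intragenic region (11.3 and 7.46 and 30.1 and 31.7 CPM). Near Ifngr1, an interferon gamma receptor chain gene with 3 higher and 1 lower of 7 regions, a region rose from 14.0 and 8.45 CPM in cMoP to 26.2 and 34.6 in proNeu1, and near Il6st, the shared signalling chain of interleukin-6 receptors, a region fell from 66.1 and 71.8 to 19.8 and 36.0 CPM. The promoter of Csf2ra, a chain of the granulocyte-macrophage growth factor receptor, with 177 and 174 and 123 and 102 CPM (log2 0.64, adjusted p = 1.18e-05), was called higher, and this call did not hold with loess offsets (log2 0.21).

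Chemokine receptor and adhesion genes had 24 of 111 regions higher (21.6%) and 19 lower (17.1%), close to all regions. Near Cxcr2, the receptor for neutrophil-attracting chemokines, a region had 14.9 and 14.9 CPM in proNeu1 and 4.30 and 0.528 in cMoP (log2 2.60, adjusted p = 1.31e-06). Itgb2, the common beta chain of leukocyte integrins, had an intragenic region at 63.7 and 52.2 and 26.9 and 24.3 CPM (log2 1.18, adjusted p = 3.06e-07). Near Selplg, the P-selectin ligand gene, a region had 8.5 and 8.14 and 33.3 and 34.8 CPM (log2 -2.03, adjusted p = 4.57e-09), and near Ccr1, a receptor for inflammatory chemokines, 0 and 2.71 and 16.7 and 15.3 CPM. That was the 1 lower region of Ccr1, which had 4 of 11 higher, and Selplg had 1 higher and 2 lower of 6, Itgb2 2 and 1 of 6. The strongest region of Ccr2, the receptor that brings monocytes out of the marrow, had 20.5 and 17.6 and 15.6 and 21.1 CPM with overlapping groups, while 2 of its 5 regions were lower and none higher. Pecam1, an adhesion molecule of leukocytes and endothelium, held a lower region (log2 -1.56, adjusted p = 1.33e-05) and a higher one (log2 2.09, adjusted p = 3.82e-08) within the gene, which had 4 higher and 1 lower of 9.

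Pattern recognition receptor and adaptor genes had 18 of 125 regions higher (14.4%) and 32 lower (25.6%), with a median of -0.20. The promoter region of Tlr9 had 9.21 and 9.50 CPM in proNeu1 and 51.6 and 42.8 in cMoP (log2 -2.32, SE 0.272, adjusted p = 7.68e-14). An intragenic region of Tlr4, the receptor for bacterial lipopolysaccharide, had 2.13 and 2.04 and 21.5 and 30.1 CPM (log2 -3.59, adjusted p = 1.77e-12), and a region near Tlr3, a receptor for RNA, 8.5 and 7.46 and 32.8 and 39.1 CPM (log2 -2.16, adjusted p = 2.06e-10). Some regions at C-type lectin genes were higher, in Clec4a2 with 19.8 and 22.4 and 1.61 and 1.06 CPM (log2 3.91, adjusted p = 1.78e-12), in Clec12a with 16.3 and 12.9 and 1.61 and 3.17 CPM and near Clec4d with 14.2 and 17.6 and 5.38 and 3.17 CPM. Others of these genes were not, since Clec4a2, Clec4n and Clec5a each had 1 region higher and 1 lower, Clec7a had its 1 region lower and Clec4e had no call. Tlr4 had 3 lower and 1 higher of 6. The promoter of Nlrp12, a Nod-like receptor gene, had 9.21 and 20.4 and 2.15 and 1.58 CPM (log2 2.95, adjusted p = 2.28e-07). With loess offsets the list had 17 higher and 31 lower regions.

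Monocyte and macrophage effector genes had 12 of 120 regions higher (10%) and 39 lower (32.5%), with a median of -0.26, and 16 of 32 genes had lower calls alone. In Cd36, a scavenger receptor gene, the region at chr5:17854126-17855257 had 9.92 and 6.10 CPM in proNeu1 and 52.1 and 59.1 in cMoP (log2 -2.79, SE 0.277, adjusted p = 3.54e-18). In Msr1, another scavenger receptor gene, the region had 10.6 and 7.46 and 47.8 and 46.5 CPM (log2 -2.38, adjusted p = 3.47e-14). Pld4, an endolysosomal exonuclease gene, had 3.54 and 6.78 and 41.4 and 39.1 CPM (log2 -2.93, adjusted p = 5.8e-15), and near Fcgr1, the high-affinity IgG receptor gene, a region had 9.92 and 6.78 and 46.8 and 38.5 CPM (log2 -2.35, adjusted p = 7.64e-13). Both proNeu1 libraries were below both cMoP libraries at all 4, and the groups were apart at 99.4% of all called regions. The lysozyme gene Lyz2, which both lineages use, had 1 of 3 regions higher and none lower, with a nearby region at 30.5 and 21.0 and 5.38 and 2.11 CPM (log2 2.76, SE 0.382, adjusted p = 1.92e-10). The inhibitory receptor genes Sirpa (log2 1.03, adjusted p = 7.85e-09) and Cd300a (log2 1.09, adjusted p = 1.08e-06) held a higher region too, but Sirpa had 2 of 6 regions lower and 1 higher, and Cd300a 1 of each.

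Lysosome and antigen presentation genes had 13 of 82 regions higher (15.9%) and 30 lower (36.6%), with a median of -0.25. In Ciita, the master regulator of MHC class II genes, the region at chr16:10487752-10488521 had no proNeu1 count and 14.0 and 14.8 CPM in cMoP, at least 13.8-fold lower in proNeu1. In Cd40, a costimulatory receptor gene, a region had 2.13 and 4.75 and 21.5 and 22.2 CPM (log2 -2.63, adjusted p = 2.18e-08), and in Ctsh, a cathepsin gene, 5.67 and 6.10 and 25.8 and 26.9 CPM (log2 -2.15, adjusted p = 4.62e-08). Higher regions included the promoters of H2-DMa, a class II peptide loading gene (log2 0.79, adjusted p = 5.11e-05), Tap1, a peptide transporter gene (log2 0.97, adjusted p = 1.18e-05), and Grn, the progranulin gene (log2 0.82, adjusted p = 0.000896), and a region near Ctsd, another cathepsin gene (log2 1.08, adjusted p = 3.02e-05). Ctsd had 4 higher and 1 lower of 5 regions, and Ctsh, Grn and Ctsb had 1 of each. Npc2 had 1 higher and 2 lower, and Ctsl and Lipa 1 higher each. At least 2-fold, 3 regions of the list were higher and 23 lower.

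Primary granule genes had 17 of 49 regions higher (34.7%) and 8 lower (16.3%), with a median of 0.33, or 13 and 8 with loess offsets and 10 and 7 at least 2-fold, and the changes at the classic enzymes were small. The promoter of Mpo, the myeloperoxidase gene, had 64.5 and 82.7 CPM in proNeu1 and 46.2 and 45.9 in cMoP (log2 0.68, SE 0.173, adjusted p = 0.000573). Elane, the neutrophil elastase gene, had 17.7 and 25.1 and 11.8 and 8.97 CPM at its promoter (log2 1.04, adjusted p = 0.00341), and near Prtn3, the proteinase 3 gene, 61.6 and 64.4 and 39.8 and 48.6 CPM (log2 0.51, adjusted p = 0.0142). Without proNeu1 replicate 2 all 3 calls were lost (adjusted p = 0.0559, 0.109 and 0.0637 for Mpo, Elane and Prtn3), as was Elane without cMoP replicate 2 (0.0529) and Prtn3 without cMoP replicate 1 (0.126), and loess offsets ended the Mpo and Prtn3 calls (log2 0.32 and 0.18). The strongest region of Ctsg, the cathepsin G gene, did not pass the test (27.6 and 29.2 and 32.8 and 35.4 CPM, adjusted p = 0.355). Larger differences stood at Nkg7 and at the promoter of Ms4a3, a gene of granulocyte-monocyte progenitors (44.6 and 44.1 and 16.7 and 18.5 CPM, log2 1.33, adjusted p = 4.2e-07). In Cst7, which encodes cystatin F, an intragenic region was higher (26.9 and 25.8 and 4.84 and 7.92 CPM) while the promoter was lower (22 and 25.1 and 38.7 and 39.6 CPM, adjusted p = 0.0857 without proNeu1 replicate 1), and near Plac8 a region was higher (log2 1.75, adjusted p = 3.8e-08) while 1 within the gene was lower (log2 -1.91, adjusted p = 0.0031). In Clec12b, a lectin receptor gene also counted in this list, the region had 4.96 and 10.2 and 45.7 and 41.2 CPM (log2 -2.50, adjusted p = 8.27e-14). The shares of the list are therefore not those of granule enzyme genes alone. Ctsc, another gene of the list, held 4 of the 8 lower regions and had 1 higher among its 8 regions, with a median of -0.68. Plac8 had 1 higher and 2 lower of 6, and Cst7 1 of each of 4.

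Later granule and neutrophil maturation genes had 39 of 88 regions higher (44.3%) and 9 lower (10.2%), with a median of 0.67, and 41 and 8 with loess offsets. Of the 32 genes with a tested region, 21 had higher calls alone and 2 lower calls alone. The promoter of Camp, the cathelicidin gene, at chr9:109849058-109850121, had 58.1 and 67.1 CPM in proNeu1 and 11.8 and 14.8 in cMoP (log2 2.23, SE 0.229, adjusted p = 3.21e-17). At Lcn2, the lipocalin 2 gene, the promoter had 32.6 and 31.9 and 3.23 and 5.81 CPM (log2 2.81, SE 0.337, adjusted p = 2.76e-13), and at Cd177, a neutrophil surface glycoprotein gene, 31.2 and 33.2 and 4.84 and 5.81 CPM (log2 2.58, adjusted p = 2.89e-12). The groups did not overlap at any of them, as at 99.4% of all called regions. Wfdc21 (log2 3, adjusted p = 4.07e-16), Orm1 (log2 2.28, adjusted p = 6.46e-09), Lrg1 (log2 2.69, adjusted p = 4.62e-06) and Pglyrp1, a peptidoglycan recognition protein gene (log2 1.77, adjusted p = 1.89e-13), were higher too. The promoter of S100a9 had 56.0 and 51.5 and 4.84 and 3.17 CPM and that of its partner S100a8 65.9 and 64.4 and 19.9 and 23.8 CPM (log2 1.57, adjusted p = 1.45e-11). Exceptions were the promoter of Mmp8, with 10.6 and 14.9 and 40.3 and 47.0 CPM (log2 -1.76, SE 0.258, adjusted p = 1.66e-09), and of Cyp4f18, a leukotriene-metabolising enzyme gene (44.6 and 37.3 and 64.5 and 65.5 CPM, adjusted p = 0.00145, and 0.0791 without proNeu1 replicate 2). A region near Ltf, the lactoferrin gene, was lower (1.42 and 2.04 and 9.68 and 9.50 CPM) beside its stronger region, which did not pass the test, but 2 of its 5 regions were higher. Cd177 had 1 higher and 1 lower of 3.

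The phagocyte NADPH oxidase, the enzyme of the oxidative burst in both lineages, had 13 of 28 regions higher (46.4%) and 4 lower (14.3%), with a median of 0.43, and at least 2-fold 4 were higher and 4 lower. In Rac2, its regulatory GTPase gene, the region at chr15:78571301-78573639 had 88.5 and 87.5 CPM in proNeu1 and 31.2 and 39.1 in cMoP (log2 1.32, SE 0.176, adjusted p = 3.79e-11). At Cyba, the p22phox gene, the promoter had 56.0 and 48.2 and 32.8 and 14.8 CPM (log2 1.13, adjusted p = 3.44e-06), and a region in Ncf4, the p40phox gene, 71.5 and 81.4 and 44.1 and 42.8 CPM (log2 0.82, adjusted p = 3.66e-05).

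Interferon response genes had 11 of 55 regions higher (20%) and 7 lower (12.7%), or 10 of each with loess offsets. The promoter of Irf1, an interferon-induced factor gene, had 69.4 and 64.4 and 31.7 and 38.5 CPM (log2 0.93, adjusted p = 1.06e-05), whereas Ifi204, a DNA sensor family gene, was lower (12 and 15.6 and 35.5 and 33.8 CPM). Inflammatory mediator genes had 15 of 98 higher (15.3%) and 26 lower (26.5%), but within 10 kb of the genes 10 of 56 were higher and 10 lower. In Ccl2, the monocyte chemoattractant gene, a region had 2.13 and 4.07 and 26.9 and 25.3 CPM (log2 -3.04, SE 0.407, adjusted p = 5.26e-11), and in Il10 a region had 3.54 and 2.04 and 12.4 and 10.03 CPM. In Nos2, the inducible nitric oxide synthase gene, a region had 12.8 and 14.9 and 1.61 and 0 CPM, 40 against 3 counts (ratio 17.3, 95% counting interval 5.52 to 87.6), and the promoter of Dusp1, a phosphatase gene, was higher (log2 1.03, adjusted p = 2.06e-07).

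Metabolism and proliferation genes had 24 of 119 regions higher (20.2%) and 18 lower (15.1%), which was 16 and 17 with loess offsets and 3 and 10 at least 2-fold. Housekeeping genes had 12 of 32 higher (37.5%) and 2 lower (6.25%), with a median of 0.35. The promoter of Ppia, a cyclophilin gene, had 112 and 116 CPM in proNeu1 and 66.1 and 62.8 in cMoP (log2 0.82, adjusted p = 1.3e-06), and 9 housekeeping regions were higher with loess offsets and 3 at 2-fold or more. In the highest decile of all regions more were higher than lower as well, and the part of the signal level in these calls was not tested. At Pfkfb3, a regulator of glycolysis, the promoter was lower (32.6 and 34.6 and 54.3 and 58.6 CPM) and an intragenic region higher (12 and 18.3 and 3.76 and 1.06 CPM), among 2 higher and 3 lower of 13.

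Genes of other cell types differed as well. Dendritic cell markers had 4 of 51 regions higher (7.84%) and 21 lower (41.2%), and the summed level of their 69 regions was 687 to 734 CPM in proNeu1 and 992 to 1013 in cMoP. DESeq2 called 1 higher and 9 lower. Flt3, which is also in the growth factor receptor list, held 7 of the 21 lower regions. Of 13 genes with a tested region, 8 had lower calls alone, 1 higher calls alone, 2 both and 2 none. Near Siglech, a plasmacytoid dendritic cell receptor gene, a region had 15.6 and 15.6 CPM in proNeu1 and 60.2 and 66.5 in cMoP (log2 -2.02, adjusted p = 1.14e-14), and in Zbtb46, a factor gene of conventional dendritic cells, 0.708 and 2.04 and 22 and 16.4 CPM (log2 -3.72, adjusted p = 5.93e-10). That was the 1 call among the 6 tested regions of Zbtb46, whose median log2 difference was 0.07. Stem cell markers had 3 of 42 regions higher (7.14%) and 12 lower (28.6%), with sums of 622 to 678 and 763 to 893 CPM, and the promoter of Cd34 (1 higher and 3 lower of 9) had 24.1 and 16.3 and 43.0 and 48.6 CPM (log2 -1.19, adjusted p = 5.05e-06). No tested region was linked to Ly6d or Cd8a of the dendritic list, Ly6a, Tek or Hoxa5 of the stem cell list, Cd79a of the B cell list, or Cd3e of the T cell list. The dendritic and stem cell sums moved with the lower calls at monocyte, receptor and lysosome genes, and their part in those results was not tested. The sums for B cell, T and NK cell, and erythroid and megakaryocyte markers overlapped between the groups, and those for mast cells, basophils and eosinophils were 262 to 273 CPM in proNeu1 and 248 to 252 in cMoP. Single regions of such genes still differed: in Hdc, the histamine-forming enzyme gene (2 higher and 1 lower of 6), 1 region had 21.3 and 29.2 and 2.69 and 2.11 CPM (log2 3.36, adjusted p = 1.07e-12), in Lck, a lymphocyte kinase gene, 44.6 and 36.6 and 11.3 and 12.1 CPM, and in Ebf1, a B cell factor gene, 17.7 and 12.2 and 0.538 and 1.58 CPM.

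Many genes held regions that moved in opposite directions. Of 14692 genes with a tested region, 6286 had a higher and 4806 a lower region, and 1828 had both, which is 29.1% of the first and 38.0% of the second. At Elmo1, whose product helps activate Rac in phagocytes, 7 of 23 regions were higher and 7 lower. Without proNeu1 replicate 2, 4 of the higher and 2 of the lower Elmo1 calls were lost (adjusted p from 0.0981 to 0.453), and DESeq2 called 3 of each. A region 3.2 kb after its start had 54.5 and 57.7 CPM in proNeu1 and 17.7 and 15.3 in cMoP (log2 1.76, adjusted p = 5.62e-12), the region 223.2 kb after the start had 0.708 and 2.71 and 23.7 and 23.8 CPM (log2 -3.72, adjusted p = 6.93e-12), and 1 at 259.5 kb had 7.08 and 11.5 CPM and no cMoP count, at least 11.7-fold higher. The promoter region of Elmo1 had means of 52.1 and 50.1 CPM (adjusted p = 0.838), so no difference was detected there at this depth. Igf1r, the insulin-like growth factor receptor gene, had 9 of 24 regions higher and 5 lower, and Itpr1, a calcium channel gene, 9 and 6 of 27. Pde4d, a phosphodiesterase gene (7 higher and 8 lower of 39), Asap1 (5 and 11 of 31), Nfia (7 and 5 of 24), Sipa1l2 (5 and 7 of 17) and Wwox (6 and 5 of 27) followed. DESeq2 called fewer, with 7 and 2 at Igf1r, 3 and 5 at Itpr1, 5 and 5 at Pde4d, 0 and 3 at Asap1, 2 and 2 at Nfia, 2 and 4 at Sipa1l2 and 5 and 1 at Wwox. Genes with many regions have more chances to hold both kinds, the median being 6 tested regions for genes with both and 2 for all genes.

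**Figure D5:**
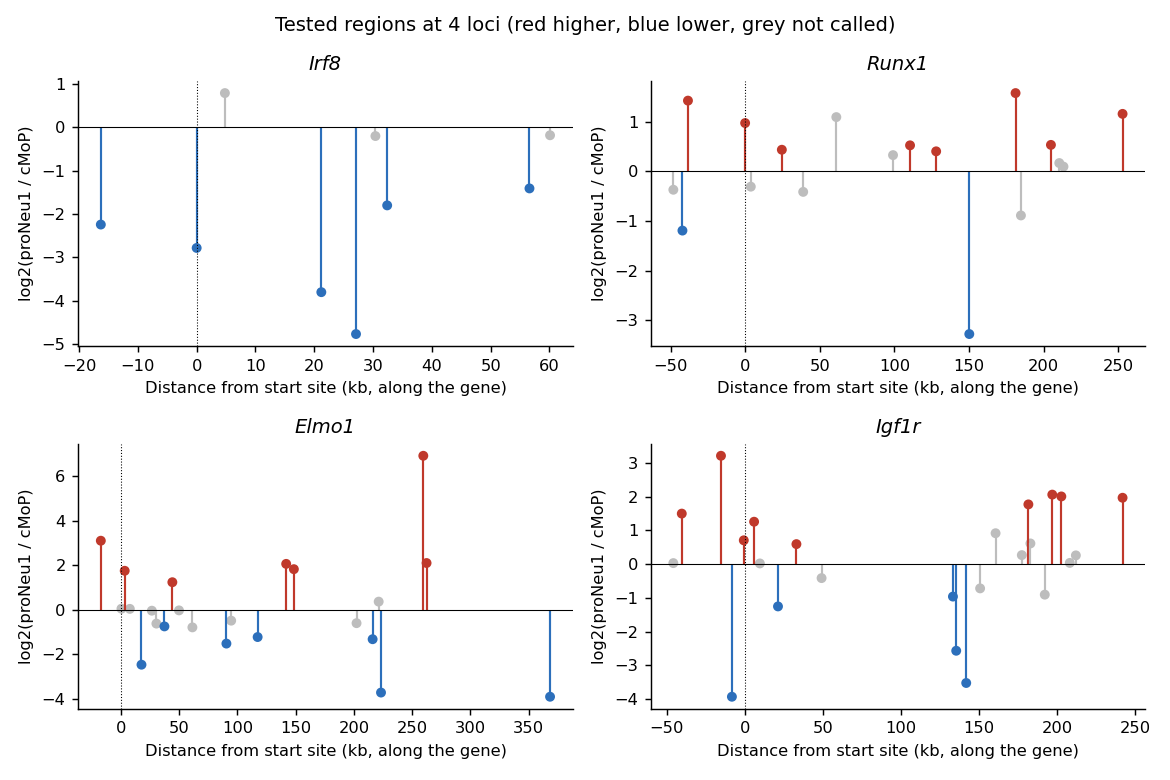
Log2 difference of proNeu1 over cMoP at each tested region against its distance from the first start site along the gene, in kb, at Irf8, Runx1, Elmo1 and Igf1r (red higher, blue lower, grey not called). The 6 called regions of Irf8 are all lower, while Elmo1 has 7 called in each direction.

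Other genes had calls in 1 direction along their length. Tnrc6b, a gene of microRNA-guided silencing, and Rps6ka1, a ribosomal S6 kinase gene, each had 8 of 9 regions higher and none lower, and Dgkh, a diacylglycerol kinase gene, 7 of 13. They differed across settings, as Tnrc6b had 7 with loess offsets and 6 with DESeq2, Rps6ka1 4 and 2, and Dgkh 8 and 3. In Dgkh a region had 41.8 and 48.2 CPM in proNeu1 and 9.68 and 6.33 in cMoP (log2 2.48, adjusted p = 3.13e-15). On the lower side, Sema6d, a semaphorin gene, had 11 of 11 regions lower, Stxbp6 12 of 14, Lpp, a focal adhesion protein gene, 13 of 19, and Slc9a9, a sodium-proton exchanger gene, 11 of 18. With DESeq2 these were 7, 10, 6 and 4, and with loess offsets 10, 11, 9 and 7. In Sema6d a region had 0.708 and 2.71 and 31.2 and 34.8 CPM (log2 -4.19, adjusted p = 1.35e-16). With at least 4 calls in 1 direction and none in the other there were 100 genes on the higher and 248 on the lower side.

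The other groups of the study show where these regions stood outside the comparison, as levels without a test. The S100a9 promoter had 60.2 and 69.0 CPM in proNeu2 and 5.81 and 5.67 in GMP-MoP, and the Camp promoter 75.4 and 77.0 and 17.4 and 17.6. The Irf8 promoter had 3.04 and 1.33 CPM in proNeu2 and 29.8 and 21.5 in GMP-MoP, the Cd36 region 4.86 and 3.98 and 23.2 and 45.4, and the Mmp8 promoter 11 and 9.29 and 24.7 and 36.3.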

How the data were processed

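ATAC-seq counts of mouse bone marrow progenitors were used, 2 libraries each of proNeu1 and cMoP, with proNeu2 and GMP-MoP in the fit for a shared estimate of the spread. The deposited files hold whole-number read counts per region in 61196 regions that are the same in every file, with a median width of 832 bases. The tools HOMER 4.11, edgeR 3.32.1 and Bowtie2 2.3.5.1 and the build mm10 are named, with no role, per the submitters' processing notes. The authors' handling of Tn5 offsets, duplicate and mitochondrial reads and region calling was not given in the sources used here. Totals cover these regions only, so library depth outside them is unknown, and PCR reads are not independent molecules, so intervals and floors cover counting error only.

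The test was edgeR's robust quasi-likelihood F test (edgeR 4.0.16 in R 4.3.3), with TMM factors, filterByExpr and 1 mean per group over 8 libraries. The 2 proNeu2 libraries differed by no more than counting noise and may be 1 library, so a fit without them was also run. Benjamini-Hochberg adjustment ran over 47506 tested regions, while 13690 did not pass the filter. A fold against a group with no count is a lower bound against 3 counts over the group, and with 1 to 3 counts the ratio has its 95% exact interval. Tested on simulated data of this comparison (44602 regions), the fit recovered 14, 62, 96 and 100% of 50 regions changed by 1.5, 2, 3 and 4-fold, and called 2 of 44402 unchanged regions. The simulation gave every region the same spread. It changed far fewer regions than were called in the data, drawn from those with larger counts, so recovery in the data may differ. Regions were linked to the nearest RefSeq protein-coding gene (GRCm38.p6) within 50 kb, which covered 53906 regions (88.1%). The promoter windows cover 17492 of 21887 protein-coding genes.

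The naming rule took called regions within 10 kb of a gene, 1 per gene: the 12 largest changes and the 8 smallest p-values per direction, and up to 4 genes per direction by p from each of 21 gene lists. It also took the 8 genes with most calls in each direction or in both, the 6 highest-level calls per direction, the strongest region of lineage factor, growth factor receptor and granule genes, and promoters in called regions, up to 4 per direction. The text describes part of these, and some genes of the lists are not reported here. Other regions at Irf8, Irf4, Cebpa, Cebpe, Gfi1, Etv6, Erg and Elmo1, which of the promoters to print, and runs of neighbouring regions were choices made after their values were seen. The comparison, the lists and the motif letters were chosen with earlier results of these data known. Alternatives were other scalings (total counts, DESeq2's size factors, loess offsets), DESeq2 1.42.0, no filter, fewer libraries, a replicate block, a 2-fold minimum, a 10 kb link and each library left out. Tables and figures were made with pandas 2.3.3 and matplotlib 3.10.9.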

Additional observations from a re-analysis of the deposited data

How the results depend on the processing

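The counts of called regions kept within 1.5 times of 9773 higher and 10389 lower in most settings. DESeq2's Wald test gave 3970 higher and 5272 lower, the same with and without independent filtering, and all of them were calls of edgeR in the same direction. A 2-fold minimum gave 4877 higher and 8801 lower. Leaving out 1 library at a time gave 7160 to 8924 higher and 8063 to 9488 lower, the lone library being assumed to vary like the others. Scaling by total counts gave 7960 and 11474, size factors of DESeq2 8805 and 10907, no filter 11399 and 12051, the 4 libraries alone 9070 and 10741, and the fit without proNeu2, whose replicates differed no more than counting noise allows (chi-square over its degrees of freedom 1.01, against 1.3 to 1.38 in the other groups), 10019 and 9646. No region called in both fits changed direction in any of these settings. With the replicate block there were 10010 and 10458 calls, and no named call was lost. The replicate numbers were not taken to pair samples, because the labels do not say that they mark a shared animal or day. Deviations of same-numbered libraries correlated at -0.011 to 0.0793. These deviations are mostly counting noise, so the correlations cannot show whether the samples were paired. Of 277 called named regions, 194 were called in all 13 alternative fits, 66 were not called by DESeq2, 44 not with loess offsets and 64 not without 1 library. With loess offsets the log2 difference turned at the promoters of Ube2d3 (-0.151), Sp4 (-0.114), Calr (-0.025) and Ifngr2 (-0.022), which were higher, and Il3ra, not called before, was lower (-0.271). The cause of these changes was not tested. DESeq2 did not call the promoters of Elane, Gfi1, Cst7 and Grn, the region near Prtn3 or the one within Plac8 (adjusted p from 0.0582 to 0.177). Of gene lists, later granule genes had 25 higher and 4 lower regions with DESeq2 and 35 and 9 within 10 kb, and monocyte and macrophage effector genes 4 and 22 with DESeq2 and 9 and 33 within 10 kb. Simulated 1.5-fold changes were recovered at 14% of the changed regions. These were drawn from regions with expected counts above the medians of 11 to 18 counts a region, so recovery at the median depth was not simulated.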

Other observations

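Chromosome X had the smallest share of higher regions among the autosomes and X. Of its 1130 tested regions, 7.26% were higher and 23.5% lower in proNeu1, and 6.64% and 20.9% with loess offsets. X-linked promoters had 6.73% higher and 11.9% lower, against 37.5% and 6.65% of autosomal promoters, and with loess offsets 2.45% higher and 18% lower, against 16.9% and 11.6% of autosomal promoters. The X chromosome held 2.38 and 2.45% of counts in cMoP and 2.07 and 2.06% in proNeu1, while chromosome Y held 0.023 and 0.025% and 0.020 and 0.024%. Chromosomes 11 and 19 leaned the other way, with 32.2% of regions higher on each, and 13.9% and 15.4% lower, and chromosome 3 had 12.1% higher and 31% lower. The labels give no sex for the animals.

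Neighbouring calls ran in the same direction over long stretches, chosen after their values were seen. There were 11 runs of at least 10 neighbouring tested regions lower in proNeu1 and none of that length higher, against 164 lower and 137 higher runs of at least 5. The longest held 19 lower regions around Sema6d, over 934 kb, with a median log2 difference of -2.20. Others lay at Irf4, Exoc2 and Dusp22 (12 regions, median -1.66), Msr1 and Tusc3 (12 regions, median -1.66), Kcna3 and Kcna2, potassium channel genes (13 regions, median -2.03), Cxcl12, a chemokine gene (10 regions, median -2.45), and the eosinophil-associated ribonuclease genes Ear2 and Ear10 (10 regions, median -2.71). The longest higher runs had 9 regions, such as that at Fgr, a myeloid tyrosine kinase gene, and Stx12 (median 1.03). At Mapk3 and Aldoa, 3 of 9 higher regions overlapped a promoter window (median 0.86).

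Among the largest changes, several regions had counts in 1 group alone. In Akain1 a region had 14.2 and 19.7 CPM in proNeu1 and no cMoP count (at least 21.2-fold higher), and in Atp6v0d2, a proton pump subunit gene, 21.3 and 8.14 CPM (at least 18.2-fold higher). In Rabgap1l a region had 19.4 and 29.6 CPM in cMoP and no proNeu1 count (at least 23.6-fold lower), and in Mms22l, a DNA repair gene, 16.7 and 26.4 CPM (at least 20.8-fold lower).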
